A study of Mus musculus with 49 samples.

Results

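Barcode abundance in a pool of integrated reporters (IRs) was compared before and after Cas9 targeting, IR by IR. The members were all IRs with counts in genomic DNA (gDNA) taken before Cas9, and 3842 IRs were found. Of these, 3818 had at least 10 gDNA counts in both gDNA replicates and entered the tests, 3109 were listed after Cas9 with sgRNA2, 3238 with sgRNA3 and 2962 with both. The gDNA and Cas9 tables used here rest on 44 of the 49 samples of the series. The share of an IR was its percentage of all reads of a table, and the share before Cas9 was the mean of both gDNA replicates after scaling them to equal totals.

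The host was the mES (mouse embryonic stem) cell line EBRTcH3, in which ROSA26 drives a tetracycline-controlled transactivator. The TRIP pool GEMP-O was made from them by piggyBac transposition of barcoded EGFP reporters, each with 1 of 7 promoters (CMV, cMyc, Hoxb1, Nanog, Oct4, p53 or PGK). For the Cas9 assays, pool cells received a plasmid with SpCas9 and a guide RNA against EGFP, with mCherry as the marker for sorting, and DNA was isolated after incubation. All groups carry the same reporters and differ in the guide, in the single-stranded DNA template (ssODN) and in when and how the DNA was counted.

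The gDNA group had no guide and 2 replicates, with 2648119 and 2704892 counts. The sgRNA2 group received sgRNA2 without ssODN, in 12 libraries merged into a table of 2007117 reads. The sgRNA3 group received sgRNA3 without ssODN, also in 12 merged libraries, with 733255 reads. For comparison, 5 further tables came from sgRNA2 with ssODN. They are the reported assay with 2199872 reads, the additional experiments 1 and 2 with 934295 and 1421134 reads, and the additional experiments 3 and 4, labelled with 1 µM and 8 µM ssODN, with 2566534 and 2569943 reads. Since each Cas9 table merges its libraries, a table is 1 sample. No pool grown without Cas9 up to the time of the Cas9 assays was part of the comparison. Cas9 cleavage, time in culture, transfection, sorting and the amplicon therefore changed together between gDNA and the Cas9 tables, and cannot be told apart.

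In a TRIP pool, every reporter carries its own random barcode. How often a barcode is read in gDNA before Cas9 follows how many cells carry that IR. After Cas9 the amplicon spans the cut site, and whether all edited copies were read was not tested. A transposon pool descends from a limited number of sorted founder cells with several IRs each, and IRs of the same founder are passed on together when its descendants grow. Shares are relative, and a loss of cells with an IR and a gain of cells with other IRs give the same lower share.

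The sequences that the counts rest on are the guides, which decide where Cas9 cleaves EGFP, and the barcodes, which tell the IRs apart. The guides are shown 5′ to 3′ with the 12 bases next to the PAM in capitals, and have a GC content of 70% (sgRNA2) and 40% (sgRNA3). The barcodes belong to IR24235 and IR52633, whose reads were among the most numerous with both guides, to IR1081 and to IR6310. By reads, IR1081 had rank 3 with sgRNA3 and rank 103 with sgRNA2, and IR6310 was the most abundant IR in gDNA.
sgRNA2: cgccgggaTCACTCTCGGCA
sgRNA3: agtgtcacCTAAATCGTATG
barcode of IR24235: cgatgtaaatcctcttcc
barcode of IR52633: tcctgtatctgactaca
barcode of IR1081: ataatgtccgaaagccgt
barcode of IR6310: tgggcttggctaagggat

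Windows of 60 bases of the mouse genome (mm9, plus strand) around 3 of these integration sites and that of IR8077, another IR with many reads after Cas9, are shown with the 4 bases at the insertion in capitals. The piggyBac transposase inserts at TTAA, and these 4 letters were found at the mapped position of 3710 of 3836 IRs with a window (96.7%), and at 17 of the 18 IRs described further on. IR52633 was integrated at chr17:45334745-45334804, IR8077 at chr2:154293429-154293488, IR1081 at chr1:54217373-54217432 and IR6310 at chr2:75858772-75858831.
IR52633: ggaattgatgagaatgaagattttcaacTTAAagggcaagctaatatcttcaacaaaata
IR8077: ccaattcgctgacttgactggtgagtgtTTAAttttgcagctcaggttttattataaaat
IR1081: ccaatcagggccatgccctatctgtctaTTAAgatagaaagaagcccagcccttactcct
IR6310: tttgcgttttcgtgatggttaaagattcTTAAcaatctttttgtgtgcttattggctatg

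Before Cas9, the pool was spread over many IRs. The 10% of IRs with most counts held 36.3% and 36.0% of the counts in gDNA replicates 1 and 2, and no IR held more than 0.258% in replicate 1. Taking the mean of both replicates, 640 IRs were needed to reach 50% of the counts. The effective number of IRs, which is the inverse of the summed squared shares and equals the number of IRs if all shares are equal, was 1730. The replicates lay close to each other, with an SD of 0.33 for the log2 ratio of their shares over 3818 IRs.

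After Cas9, reads were concentrated on far fewer IRs. With sgRNA2, the 10% of listed IRs with most reads held 94.9% of the reads (95% Wilson interval 94.8 to 94.9%), 9 IRs reached 50% and the effective number was 23.7. With sgRNA3, the leading 10% held 74.7% (74.6 to 74.8%), 91 IRs reached 50% and the effective number was 235. The leading IR held 6.59% of the reads with sgRNA2 and 1.58% with sgRNA3. These intervals, and all Wilson intervals given further on, cover counting error only, since the spread between the merged libraries is unknown.

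The same direction was seen in all 7 Cas9 tables. Across them the leading 10% held 66.6 to 94.9% of the reads, with a mean of 85.1% (SD 10.5, n = 7), against a mean of 36.2% (SD 0.221, n = 2) in gDNA. The 7 Cas9 tables and the 2 gDNA replicates did not overlap. An exact permutation test over tables, two-sided, gave p = 0.0556, computed as 2 times the one-sided p, which is the smallest p this test can give for 2 against 7. The test treats the tables as separate samples, although the library names of 5 Cas9 tables share a number. In these 5 tables the leading 10% held 86.5 to 94.9%, against 66.6% in additional experiment 1 and 74.7% with sgRNA3. The Cas9 tables also differed more among themselves than the gDNA replicates did, with SDs of the log2 ratio of shares from 0.92 to 1.85 over the 21 pairs of Cas9 tables. Pairs of a gDNA replicate and a Cas9 table had larger SDs, from 2.60 to 3.06.

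**Figure D1:**
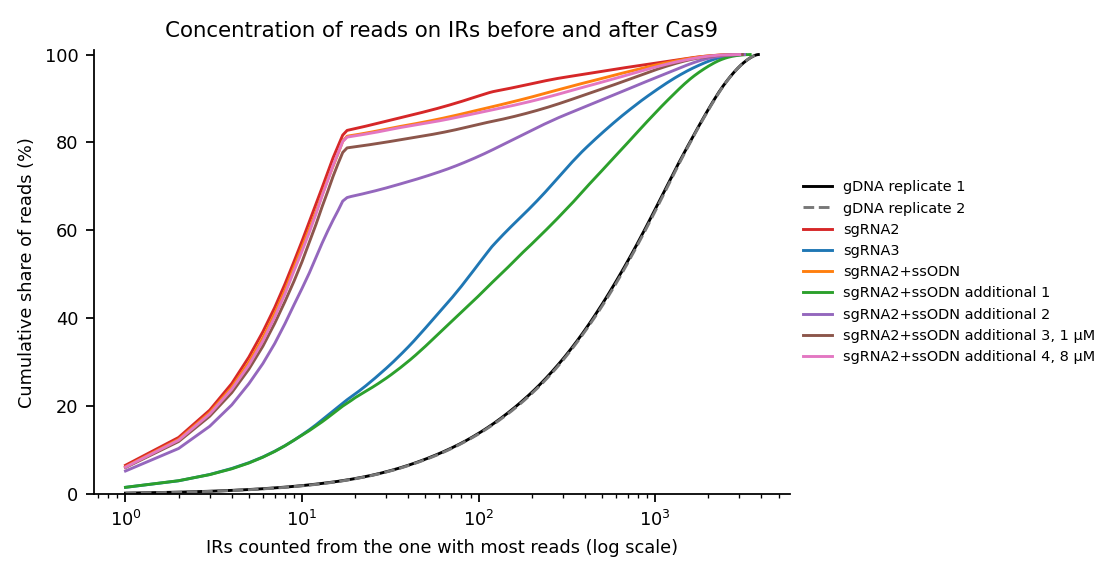
Cumulative share of reads (%) against the number of IRs, counted from the one with most reads (log scale), for both gDNA replicates and the 7 Cas9 tables, each line 1 table. The gDNA replicates nearly coincide and reach 50% at 634 and 644 IRs, while 5 Cas9 tables climb to between 67.5 and 82.7% at 18 IRs.

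With sgRNA2, most reads came from 18 IRs. They were picked after their values were seen, as the IRs above the widest step among the 100 highest read counts of that table, and get no test as a set. The lowest of the 18 had 21344 reads with sgRNA2 and the highest other IR had 4198. In gDNA the 18 IRs lay at ranks 258 to 1845 of 3842, and together they held 0.890% and 0.908% of the counts in replicates 1 and 2. After Cas9 with sgRNA2 they held 82.7% of all reads (95% Wilson interval 82.7 to 82.8%). Without them, a setting chosen after seeing the data, reads were still more concentrated than in gDNA, as the leading 10% of the other IRs held 71.0% with sgRNA2 and 36.3% in gDNA, with effective numbers of 297 and 1710.

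The other tables had no part in this choice. With sgRNA3 the same 18 IRs held 19.5% of the reads (19.5 to 19.6%), and 15 of them were among the 18 IRs with most reads. With sgRNA2 and ssODN they held 81.4% in the reported assay, 19.8% in additional experiment 1, 67.5% in additional experiment 2, 78.8% with 1 µM ssODN and 81.2% with 8 µM ssODN. Each of the 18 IRs had a higher share than in gDNA in each of these tables. The same held with sgRNA2, where they were chosen.

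The 18 IRs also differed between tables with the same guide. In the labels, the library names of 5 Cas9 tables open with a number that they share, while sgRNA3 and additional experiment 1 have numbers of their own, and what the number stands for is not stated. The 18 IRs held 67.5 to 82.7% of the reads in the 5 tables with the shared number and 19.5 and 19.8% in the others. Additional experiments 1 and 2 both had sgRNA2 and the ssODN. The cause was not tested. For sgRNA2 and sgRNA3 themselves, with 1 table each, the guide and this number cannot be told apart.

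**Figure D2:**
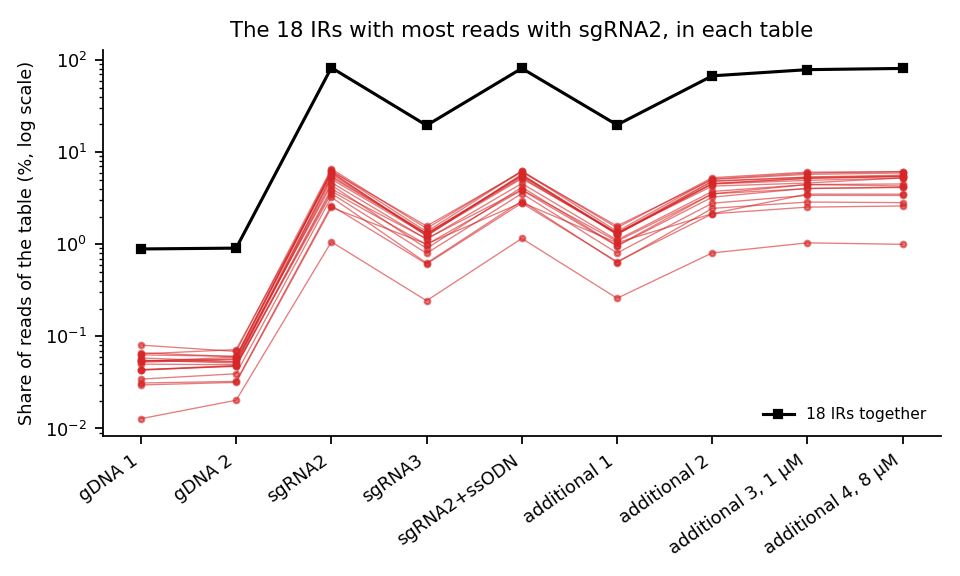
Share of the reads of each table (%, log scale) held by each of the 18 IRs with most reads with sgRNA2 (red, 1 line per IR) and by all 18 together (black), in the 2 gDNA replicates and the 7 Cas9 tables. Together they hold 0.890 and 0.908% in gDNA, near 20% with sgRNA3 and in additional experiment 1, and from 67.5 to 82.7% elsewhere.

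The shares of the 18 IRs moved nearly in parallel. Their shares in gDNA spanned 4.51-fold and their reads with sgRNA2 spanned 6.20-fold, while the log2 change in share with sgRNA2 lay between 6.01 and 6.76 (median 6.46) for all 18. With sgRNA3 it lay between 3.88 and 5.04 (median 4.45). Here and below, log2 changes were taken with 0.5 counts added per table.

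The IR with most reads with sgRNA2 was IR24235, driven by the Hoxb1 promoter and located between genes on chromosome 7 at position 81011653, 50264 bases from Gm10619. It had 2129 and 1855 counts in gDNA (0.0804 and 0.0686%), 132369 reads with sgRNA2 (6.59%) and 10890 with sgRNA3 (1.49%). Its share was thus 88.5-fold higher with sgRNA2 and 19.9-fold higher with sgRNA3 than in gDNA. It is also the member of the set without TTAA at the mapped position.

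IR52633, driven by the p53 promoter and 78536 bases from Supt3h, a gene for a subunit of a transcriptional coactivator complex, came next. It had 1666 and 1642 counts in gDNA (0.0629 and 0.0607%), 127037 reads with sgRNA2 (6.33%) and 10043 with sgRNA3 (1.37%). IR8077, with the Oct4 promoter, lay in an intron of the transcriptional corepressor gene Cbfa2t2, and had 1414 and 1612 counts in gDNA (0.0534 and 0.0596%), 121486 reads with sgRNA2 (6.05%) and 9021 with sgRNA3 (1.23%). IR39217, with the CMV promoter and 32701 bases from Mboat2, had 0.0542 and 0.0570% in gDNA, 6.01% with sgRNA2 and 1.24% with sgRNA3. IR17555, with the Hoxb1 promoter and 19985 bases from Ugt2a3, had 0.0645 and 0.0718% in gDNA, 5.75% with sgRNA2 and 1.31% with sgRNA3.

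The 18 IRs were spread over positions and promoters. They lay on 13 chromosomes, with 9 in introns, 7 between genes, 1 in an exon and 1 in an untranslated region, where 45.2% of all IRs lay in introns and 50.9% between genes. The introns included those of Unc5d, Phf14, Dmtf1, Cep57, Lmf1 and Bend3, named after their values were seen. They carried 6 of the 7 promoters, namely Hoxb1 at 5 IRs (27.8%, against 35.8% of all IRs tested), Nanog at 4 (22.2 against 13.1%), Oct4 at 4 (22.2 against 11.3%), p53 at 3 (16.7 against 12.3%), and CMV and cMyc at 1 each (5.56 against 13.0 and 10.0%). Their cDNA counts before Cas9, summed over replicates, ranged from 3 to 4183 (median 174, against 82 over all IRs). Their gDNA counts were higher too, with medians of 1400 and 1410 in replicates 1 and 2, against 417 and 430 over all IRs. Their median log2 ratio of cDNA to gDNA was -4.07, against -3.61 at the 2666 IRs in all 7 Cas9 tables. At IRs in 2 to 6 tables, in 1 and in none it was -2.87, -1.32 and -0.26.

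The 18 IRs shared a low mutation frequency. The mutation frequency is the percentage of reads of an IR that are not wild-type. With sgRNA2 it lay between 0.587 and 1.09% at the 18 IRs, and with sgRNA3 between 7.54 and 14.0%. Pooled over the 18 IRs, 0.753% of the reads were mutated with sgRNA2 (95% Wilson interval 0.740 to 0.766%) and 10.4% with sgRNA3 (10.3 to 10.6%). At the other IRs, 16.4% of the reads (16.3 to 16.5%) and 83.3% (83.3 to 83.4%) were mutated.

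The percentage of mutated reads depended on whether IRs were weighted by their reads after Cas9 or by gDNA. With sgRNA2, 3.45% of all reads used were mutated, while the mutation frequencies of the same 3109 IRs averaged 24.7% when weighted by their gDNA counts. With sgRNA3 it went the other way, with 69.1% of all reads mutated and an average of 53.2% over 3238 IRs weighted by gDNA.

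**Figure D3:**
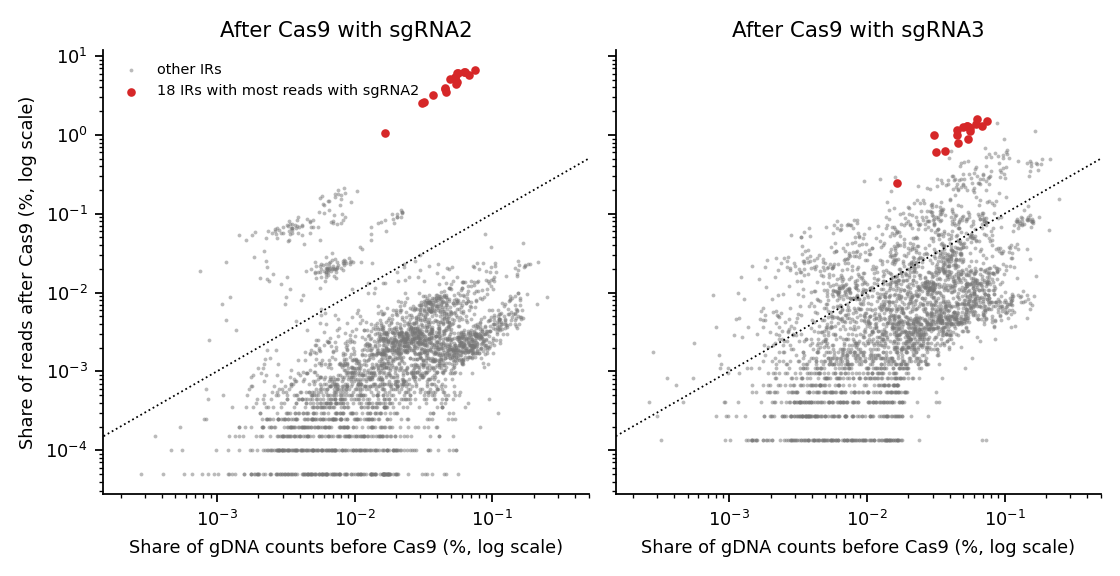
Share of reads after Cas9 with sgRNA2 (left) or sgRNA3 (right) against the mean share in gDNA before Cas9 (both %, log scale), 1 point per IR listed in that table. The 18 IRs with most reads with sgRNA2 (red) stand clear of all others with sgRNA2, and most grey points lie below the dotted line of equal shares.

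At most IRs the share was lower after Cas9. Over the 3818 IRs the median log2 change was -4.45 with sgRNA2 (quartiles -5.94 and -3.12) and -2.43 with sgRNA3 (quartiles -3.88 and -0.58). The share was higher at 210 IRs with sgRNA2 and at 725 with sgRNA3. Shares add up to 100%, and with shares computed without the 18 IRs, a setting chosen after seeing the data, the medians were -1.93 and -2.16. The share was then higher at 574 of 3800 IRs with sgRNA2 and at 818 with sgRNA3. TMM scaling, which centres the bulk of the IRs, moved the medians to -0.35 and -0.73.

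The test per IR used edgeR's quasi-likelihood fit over 9 tables, in which sgRNA2 and sgRNA3 are assumed to vary like the groups with more than 1 table. With shares of all reads and a Benjamini-Hochberg adjusted p under 0.05, it called 0 of 3818 IRs (0%) for sgRNA2 against gDNA, 0 (0%) for sgRNA3 against gDNA and 0 (0%) for sgRNA3 against sgRNA2. The unadjusted p was under 0.05 at 2250, 1051 and 207 IRs, and the smallest adjusted p in the edgeR fit was 0.0579, 0.125 and 0.405. All 18 IRs had an adjusted p of 0.0579 for sgRNA2 in that fit. The Wald test of DESeq2, with its own filter on low counts, called 327 rises and 225 falls with sgRNA2, 542 and 399 with sgRNA3, and 227 IRs higher and 260 lower with sgRNA3 than with sgRNA2. The spread in this fit comes partly from the 3 tables with sgRNA2 and ssODN, in which additional experiment 1 has another label number than the other 2, a number the fit does not use. The edgeR count of 0 also hung on single tables. Without additional experiment 1, edgeR called 173 rises and 3065 falls with sgRNA2, 247 and 1665 with sgRNA3, and 976 IRs higher and 37 lower with sgRNA3 than with sgRNA2. Without the reported sgRNA2 and ssODN table it called 139 rises and 2744 falls with sgRNA2 and 19 and 801 with sgRNA3, and 0 between the guides, where the unadjusted p was under 0.05 at 997 IRs. Leaving out additional experiment 2 or either gDNA replicate left all counts at 0.

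The scaling moved the calls too. With TMM scaling in place of shares of all reads, edgeR called 316 rises and 336 falls with sgRNA2 and 539 and 577 with sgRNA3. With the size factors of DESeq2 in the same fit it called 245 and 294, and 488 and 594. Neither called an IR between the guides.

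Leaving out the 18 IRs and taking shares over the rest, a setting chosen after seeing the data, gave calls for both guides. With sgRNA2, edgeR then called 195 rises (5.13% of the 3800 IRs tested) and 1245 falls (32.8%). With sgRNA3 it called 234 rises (6.16%) and 1546 falls (40.7%). For sgRNA3 against sgRNA2 it called 0 rises (0%) and 0 falls (0%), with an unadjusted p under 0.05 at 711 IRs.

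The calls of this fit were set beside the mutation frequency of the IRs. Of the 195 rises with sgRNA2, 187 were mutated in under 20% of the reads and 3 in 80% or more (median 0.399%), where 51.7% and 3.31% of the IRs with at least 30 reads were in these ranges. Of the 234 rises with sgRNA3, 183 were mutated in 80% or more of the reads (78.2%) and 49 in under 20% (20.9%), against 41.8% and 17.3% of the IRs with at least 30 reads. Both fits share the gDNA replicates. Of the falls with at least 30 reads, 204 of 254 with sgRNA2 (80.3%) and 119 of 366 with sgRNA3 (32.5%) were mutated in under 20%. Most falls had fewer reads and no frequency, and the minimum of 30 reads is itself tied to the fall.

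Many falls were IRs without reads. With sgRNA2, 573 of the 1245 falls had no read in the table, as had 715 of all 3800 IRs, and with sgRNA3 it was 541 of 1546 falls and 590 of 3800. Among the falls, 268 with sgRNA2 and 283 with sgRNA3 were IRs in none of the 7 Cas9 tables, as were 301 of all 3800 IRs. The authors filtered aberrant barcodes and left out reporters with low coverage or ambiguous barcodes. Whether these steps removed such IRs from the tables is not known, so their zeros may not be measurements.

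Some IRs of this fit are given with their counts, and were picked after their values were seen. IR19525, with the Hoxb1 promoter in an intron of the sarcoglycan gene Sgce, had 149 and 153 counts in gDNA, 3162 reads with sgRNA2 and 421 with sgRNA3. In the edgeR fit without the 18 IRs its log2 change was 7.32 with sgRNA2 and 3.65 with sgRNA3 (adjusted p 0.0179 and 0.0451). With shares of all reads it was 4.80 and 3.35 in the edgeR fit and did not pass (adjusted p 0.0579 and 0.135), and 0.569% and 4.51% of its reads were mutated. IR21577, with the cMyc promoter in an intron of the forkhead factor gene Foxp1, had 262 and 249 counts in gDNA, 225 reads with sgRNA2 and 1913 with sgRNA3. With sgRNA3 its log2 change in the edgeR fit without the 18 IRs was 5.07 (adjusted p 0.0158), with shares of all reads it was 4.77 in the edgeR fit (adjusted p 0.137), and 97.5% of its reads were mutated. Both IRs had higher shares with sgRNA3, at opposite ends of the mutation frequency.

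IR4988, with the Hoxb1 promoter in an exon of the snoRNA host gene Snhg7, was among the falls of the fit without the 18 IRs (adjusted p 0.0162 with sgRNA2 in edgeR), and is also named after its value was seen. It had 1868 and 2029 counts in gDNA, was not listed with sgRNA2 and had 1 read with sgRNA3, its only read in the 7 Cas9 tables. IR58638 (same edgeR adjusted p, named in the same way), with the CMV promoter on the X chromosome and 664316 bases from Diap2, a formin gene, had 2093 and 1990 counts in gDNA, was not listed with sgRNA2 and had 68 reads with sgRNA3. With shares of all reads, the adjusted p with sgRNA2 in the edgeR fit was 0.0579 for IR4988 and 0.0655 for IR58638. The tables hold no entries of 0, and an IR without an entry entered the fits as 0, so no fold is given for them.

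Abundance change and mutation frequency were then compared over IRs with at least 30 reads in the Cas9 table, without a p, because IRs share libraries and founder cells and because both measures use the same reads. A minimum of reads also leaves out IRs that fell from a low start. Over all of them there was no single trend. Pearson's r was -0.101 and Spearman's rho 0.0559 with sgRNA2 (n = 1591), and 0.367 and 0.517 with sgRNA3 (n = 1866). With at least 10 reads r was 0.00167 with sgRNA2 and 0.456 with sgRNA3, and with at least 100 reads it was -0.520 and -0.0656, so size and sign depended on the minimum.

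The plot of change against mutation frequency shows why a single coefficient says little, since the IRs fell into separate branches. Among IRs mutated in 20% or more of the reads, a range set after seeing the plot, the change in share grew with the mutation frequency. There r was 0.602 and rho 0.617 with sgRNA2 (n = 759), and 0.772 and 0.834 with sgRNA3 (n = 1529). With the mutation frequency and range of the other guide, r was 0.282 and rho 0.569 for the change with sgRNA2 (n = 1103). For the change with sgRNA3 they were 0.844 and 0.852 (n = 752). Among IRs mutated in under 20%, r was -0.400 with sgRNA2 (n = 832) and -0.413 with sgRNA3 (n = 337).

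With sgRNA3, the median log2 change in share was -2.72 at IRs mutated in 20 to 40% of the reads, -2.06 at 40 to 60%, -1.20 at 60 to 80% and 0.64 at 80 to 100%. The last of these ranges held 772 IRs, of which 510 had a higher share than in gDNA. They made up 25.2% of the gDNA counts and 62.5% of the reads with sgRNA3. The 757 IRs mutated in 20 to 80% made up 11.1, 9.29 and 16.2% of the gDNA counts in the 3 ranges in turn, and 1.74, 2.23 and 7.25% of the reads.

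With sgRNA2, the median log2 change went from -3.75 at 20 to 40% to -3.15, -2.50 and -1.82 in the following ranges. In these ranges 5 of 759 IRs had a higher share than in gDNA. After leaving out the 18 IRs from the totals, the medians were -1.23, -0.62, 0.02 and 0.70, and in the last range 45 of 52 IRs had a higher share. The order of the ranges was the same for both guides. With sgRNA2, the level at which shares went up depended on the 18 IRs. With sgRNA3 and without the 18 IRs, the medians were -2.42, -1.76, -0.90 and 0.94, positive only in the last range, as with all IRs.

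IRs mutated in under 20% of the reads were divided into 2 groups at the widest gap in their log2 change. The gap was 2.35 wide with sgRNA2 and 1.58 wide with sgRNA3. With sgRNA2, 627 of 832 had a log2 change of -1.53 or lower and 205 had one of 0.82 or higher. The upper group had mutation frequencies of up to 3.10% (median 0.421%), and the lower group had a median of 4.17%. With sgRNA3, 172 of 337 lay at -1.74 or lower and 165 at -0.16 or higher, with up to 16.1% mutated reads in the upper group. All 203 IRs whose share of all reads was over 2-fold higher with sgRNA2 were in the upper group. With shares taken without the 18 IRs, 262 IRs were over 2-fold higher. Of these, 187 were mutated in under 20% of the reads, 55 in 20 to 80% and 20 in 80% or more. Of all 1591 IRs, 52.3% were mutated in under 20% of the reads and 3.27% in 80% or more.

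**Figure D4:**
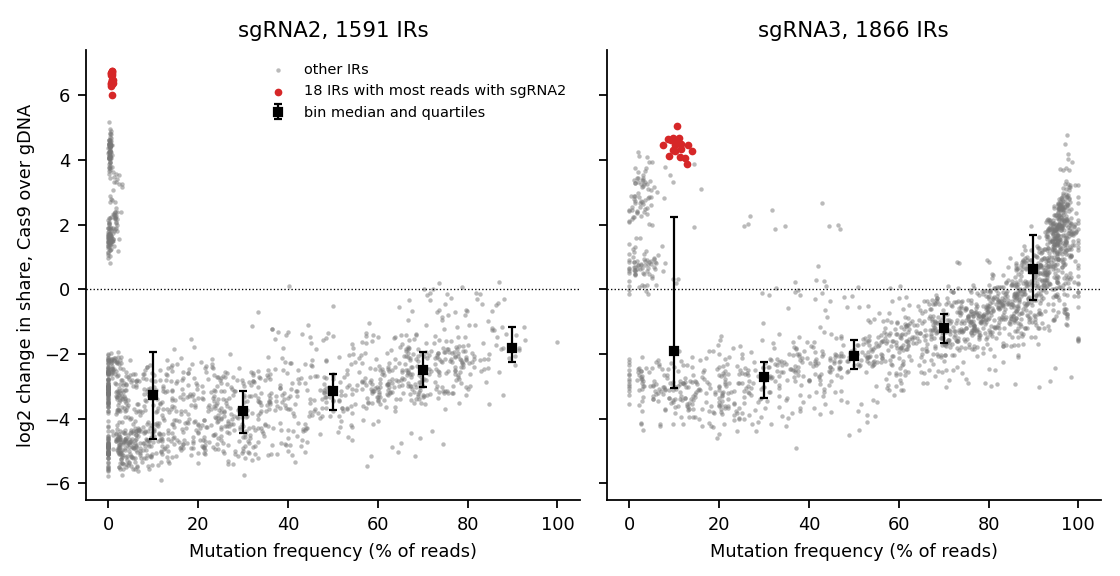
Change in share (log2, Cas9 over gDNA) against mutation frequency (% of reads) with sgRNA2 (left, 1591 IRs) and sgRNA3 (right, 1866 IRs), 1 point per IR, with the 18 IRs in red and the median and quartiles of each 20% range in black. At under 20% the IRs lie in a low and a high group, divided at the widest gap, and from 20% upward the change increases with the mutation frequency.

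The upper group was larger than the 18 IRs. Apart from them, 185 IRs had a share over 2-fold higher with sgRNA2, and these were chosen on that value. In gDNA they held 1.23 and 1.26% of the counts, at a median of 165 and 156 counts per IR, and with sgRNA2 they held 10.3% of the reads. In the tables not used to choose them they held 4.15% with sgRNA3, 7.28% in the reported assay with sgRNA2 and ssODN, and 4.83, 9.65, 6.12 and 6.74% in additional experiments 1 to 4. In each of these tables the share was thus higher than in both gDNA replicates. With shares taken without the 18 IRs, they held 1.24 and 1.27% in gDNA, 60.0% with sgRNA2, 5.15% with sgRNA3, 39.2% in the reported assay with sgRNA2 and ssODN, and 6.03, 29.7, 28.8 and 35.9% in additional experiments 1 to 4. Of the 175 of them with at least 30 reads with sgRNA3, the median mutation frequency was 3.45%, in contrast to a median of 73.0% over the 1848 IRs with as many reads outside the 18.

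With sgRNA3, a different set with a higher share lay at the heavily mutated end. Among IRs with at least 30 reads, 422 had a share over 2-fold higher. Of these, 308 were mutated in 80% or more (73.0%) and 104 in under 20% (24.6%). Of all 1866 IRs with as many reads, 41.4% and 18.1% were in these ranges. At over 8-fold higher the order turned, with 20 of 73 mutated in 80% or more (27.4%) and 53 in under 20% (72.6%). With shares taken without the 18 IRs, these were 39 (44.3%) and 49 (55.7%) of 88, against 41.8% and 17.3% of the 1848 IRs outside the 18. The share of 308 IRs was over 2-fold higher with sgRNA3 and 80% or more of their reads were mutated (median 95.9%). They held 11.2 and 11.1% of the gDNA counts and 48.7% of the reads with sgRNA3. In tables not used to choose them, they held 37.2% in additional experiment 1 and 10.4% in additional experiment 2, against 2.38% with sgRNA2, 4.63% in the reported assay with sgRNA2 and ssODN, and 4.74 and 4.11% in additional experiments 3 and 4. As a share of all reads, this was above gDNA in additional experiment 1 and below it in the 5 tables that share a label number. The direction turned with shares taken without the 18 IRs, a setting chosen after seeing the data. There the 308 IRs held 11.3 and 11.2% in gDNA, 13.8% with sgRNA2, 24.9% in the reported assay with sgRNA2 and ssODN, and 46.4, 31.8, 22.3 and 21.9% in additional experiments 1 to 4. They carried all 7 promoters and lay on 20 chromosomes.

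IR1081, with the p53 promoter in an intron of the ubiquitin ligase gene Hecw2, belonged to this set and had rank 3 by reads with sgRNA3. It had 2357 and 2397 counts in gDNA (0.0890 and 0.0886%), 1120 reads with sgRNA2 (0.0558%) and 10528 with sgRNA3 (1.44%). Its reads were mutated in 85.4% (95% Wilson interval 83.2 to 87.3%) with sgRNA2 and in 97.6% (97.3 to 97.9%) with sgRNA3. In additional experiment 1 it had 8672 reads.

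The IRs that led before Cas9 no longer led afterwards. The most abundant was IR6310, with the p53 promoter in an intron of the phosphodiesterase gene Pde11a, with 6839 and 6429 gDNA counts (0.258 and 0.238%). It had 176 reads with sgRNA2 (0.00877%, rank 318) and 1119 with sgRNA3 (0.153%, rank 123), and 26.7% and 77.1% of these were mutated. IR46029, with the p53 promoter in an intron of the formin gene Diap3, went from 0.206 and 0.215% in gDNA to 0.00707% with sgRNA2 and 0.0626% with sgRNA3, with 23.2% and 68.0% of reads mutated.

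Of the other IRs among the 5 most abundant in gDNA, 2 had a higher share with sgRNA3. IR53539, with the p53 promoter and 78393 bases from Tmem178, and IR33950, with the Hoxb1 promoter and 294454 bases from 1500009L16Rik, were mutated in 93.0 and 95.2% of the reads with sgRNA3, and their share was then 2.30-fold and 2.61-fold that in gDNA. With sgRNA2, 62.3 and 62.5% of their reads were mutated, and their share was 0.115-fold and 0.124-fold that in gDNA. None of these 4 IRs passed the edgeR test, where their adjusted p was from 0.0766 to 0.127 with sgRNA2 and from 0.391 to 0.760 with sgRNA3. The remaining IR, with the Hoxb1 promoter in an intron of the kinase gene Map3k5 on chromosome 10 at position 19793306, had 5318 and 5223 gDNA counts and was in none of the 7 Cas9 tables, so that no change can be given.

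The median change did not run in a single direction with initial abundance with either guide. In 5 equal groups of IRs from fewest to most gDNA counts, the median log2 change was -4.58, -4.16, -4.72, -3.77 and -4.71 with sgRNA2, and -2.73, -2.33, -2.75, -2.26 and -2.23 with sgRNA3. The share of IRs with no read was higher at low abundance, at 35.5% in the lowest group and 7.07% in the highest with sgRNA2, and at 29.8% and 6.68% with sgRNA3. The group with most gDNA counts included 14 of the 18 IRs, and held 55.5% of the counts before Cas9, 76.6% of the reads with sgRNA2 and 65.1% with sgRNA3.

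For sgRNA2 this turned without the 18 IRs. The other IRs of the group with most gDNA counts then held 55.2% before Cas9, 19.1% with sgRNA2 and 59.7% with sgRNA3. The group with fewest gDNA counts held 2.51% before Cas9, 21.7% with sgRNA2 and 3.17% with sgRNA3, and the next group held 6.30, 32.8 and 6.73%. The groups after that held 12.4 and 23.5% before Cas9, 11.2 and 15.2% with sgRNA2, and 9.23 and 21.2% with sgRNA3.

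Promoter medians lay closer together than the quartiles within a promoter. Over all IRs tested, the median log2 change with sgRNA2 was between -4.61 (CMV, 498 IRs, quartiles -5.99 and -3.27) and -4.09 (Oct4, 432 IRs). With sgRNA3 it was between -2.66 (CMV) and -1.67 (PGK, 168 IRs, quartiles -3.13 and -0.12). These medians were not tested. Expression before Cas9, taken as the log2 ratio of cDNA to gDNA, had r of 0.107 with the change with sgRNA2 (n = 1591 IRs) and 0.0795 with sgRNA3 (n = 1866 IRs). Both the ratio and the change are taken against the same gDNA counts, and r was not corrected for this.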

How the data were processed

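The values used were counts. Per the labels and the submitters' processing notes, the authors mapped reads with Bowtie2 2.0 to mm9 and deposited, per IR, barcode counts of gDNA and cDNA from the pool before Cas9 in 2 replicates, and per IR and lesion the number of reads after Cas9, with the 12 libraries of an assay merged. How unique identifiers entered these counts is not given. Where a Cas9 table had several entries for an IR, the largest was used, which kept 99.3% of the reads with sgRNA2 and 95.3% with sgRNA3. Of the Cas9 and pool tables, 27 columns on expression and lesions were not used. Cell line samples were left out.

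Shares were computed in Python 3.11.15 with numpy 2.4.6, pandas 2.3.3, SciPy 1.17.1, matplotlib 3.10.9 and pyfaidx 0.9.0.4, with positions read against GENCODE M1. Tests used edgeR 4.0.16, checked against DESeq2 1.42.0, in R 4.3.3. The edgeR quasi-likelihood fit took table totals as offsets and grouped 9 tables as gDNA (2), sgRNA2, sgRNA3, sgRNA2 with ssODN (the reported assay and additional experiments 1 and 2), 1 µM ssODN and 8 µM ssODN, with 3 residual degrees of freedom. It was tested on simulated data. IRs needed 10 gDNA counts per replicate, and 30 reads for a mutation frequency. Replicates may be technical, so p-values measure only the spread between these samples.

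Depth sets what can be seen. The median per IR was 417 and 430 gDNA counts, 17 reads with sgRNA2 and 27.5 with sgRNA3. Many IRs were not listed after Cas9 and entered the fits as 0, and why they were not listed was not tested. Named IRs were the 5 with most counts in gDNA, with sgRNA2 and with sgRNA3, and the 5 largest rises and falls that passed, of which there were none. This gave 12 IRs, of which 11 are named, since IRs on chromosome 18 are counted and not named. Members and lists were chosen with earlier results of these data known. Alternatives included other scalings, filters, pseudocounts and left-out tables.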

Additional observations from a re-analysis of the deposited data

Results flagged for a closer look

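Of the 310 IRs with gDNA counts that were in none of the 7 Cas9 tables, 271 (87.4%) had over 3 cDNA counts in both replicates. This marks signal at IRs whose cDNA counts were set apart above only in a median ratio of cDNA to gDNA. Among the 3532 IRs in at least 1 Cas9 table, 2494 (70.6%) had over 3 cDNA counts in both replicates. The difference was not tested. The authors filtered aberrant barcodes and left out reporters with low coverage or ambiguous barcodes, and whether this removed the 310 IRs from the Cas9 tables is not known. The 310 IRs held 6.85% of the gDNA counts, with a median of 347 and 380 gDNA counts and 245.5 and 249 cDNA counts in replicates 1 and 2, against 587 and 611 gDNA counts and 41 and 43 cDNA counts at the 2666 IRs in all 7 Cas9 tables. The IR at position 19793306 of chromosome 10 belonged to them.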

How the results depend on the processing

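Of 167 alternatives for 20 results, of which 132 were planned, 89 kept the result, 73 moved its value and 5 reversed it. In all alternatives the leading 10% of IRs held more of the reads with either guide than in gDNA, and both medians of the log2 change stayed below 0. No paired analysis was possible because the Cas9 tables merge their libraries and their columns carry no replicate number shared with gDNA.

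Over IRs counted with both guides, the leading 10% held 33.7% in gDNA, 94.7% with sgRNA2 and 73.1% with sgRNA3. Leaving out either gDNA replicate gave 36.0 to 36.3%, and thinning to the smallest total gave 94.6% with sgRNA2. Without the 18 IRs the values were 71.0% with sgRNA2, with an effective number of 297 and 98 IRs for 50% of the reads, and 69.7% with sgRNA3. The median log2 change with sgRNA2 was -0.35 with TMM, -3.71 with a pseudocount of 5, -1.93 without the 18 IRs, -4.33 without IRs in no Cas9 table and -4.45 to -4.42 without a gDNA replicate. With sgRNA3 it was -0.73, -1.90, -2.16, -2.29 and -2.41 in turn, -2.38 with at least 100 gDNA counts and -2.43 with all entries summed.

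For sgRNA2 against gDNA, where the first fit called 0, edgeR called 316 rises and 336 falls with TMM, 245 and 294 with DESeq2 size factors, 18 and 13 over IRs listed with both guides, 195 and 1245 without the 18 IRs, and 94 and 1478 without IRs in no Cas9 table, while DESeq2 called 327 and 225. For sgRNA3 these were 539 and 577, 488 and 594, 0 and 0, 234 and 1546, and 0 and 0, with 542 and 399 by DESeq2. Between the guides, DESeq2 called 227 and 260. Leaving out 1 table gave 0 to 173 rises and 0 to 3065 falls with sgRNA2, 0 to 247 and 0 to 1665 with sgRNA3, and 0 to 976 and 0 to 37 between the guides.

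The relation with mutation frequency with sgRNA2 (r -0.101) reversed to 0.0559 as Spearman's rho, 0.00167 with at least 10 reads and 0.602 at IRs mutated in 20% or more. It was -0.520 with at least 100 reads, -0.0119 with at least 100 gDNA counts, -0.330 with the other guide's frequency, -0.103 without the 2 IRs farthest from the median, -0.146 without the 10% of IRs with most gDNA, -0.0802 given gDNA share, -0.0676 without the 18 IRs and -0.400 at IRs mutated in under 20%. With sgRNA3 (r 0.367) it reversed to -0.0656 with at least 100 reads and -0.413 at IRs mutated in under 20%. It was 0.517 as rho, 0.456 with at least 10 reads, 0.772 at IRs mutated in 20% or more, 0.472 with at least 100 gDNA counts, 0.518 with the other guide's frequency, 0.365 without the 2 farthest IRs or without either gDNA replicate, 0.304 without the 10% with most gDNA, 0.408 given gDNA share and 0.422 without the 18 IRs. For all of these the cause was not tested. Settings without the 18 IRs, without IRs in no Cas9 table or by mutation frequency were chosen after seeing the data.

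The main limits are the design and depth. Each guide alone has 1 merged table, so its spread is taken from other tables. Before and after differ in Cas9, time, sorting and amplicon at once, and guide and label number changed together. IRs of a founder cell are not independent. Low gDNA counts limit how large a fall can be seen.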

Other observations

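The 67 IRs listed in 1 of the 7 Cas9 tables had a median of 56 and 60 gDNA counts in replicates 1 and 2, and the 799 IRs in 2 to 6 tables had 169 and 178. By genomic context, the median log2 change with sgRNA2 was -4.40 at 1737 IRs in introns, -4.47 at 1957 IRs between genes, -4.52 at 83 IRs in untranslated regions and -4.85 at 59 IRs in exons, and with sgRNA3 it was -2.41, -2.49, -2.09 and -1.84.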
